A study of Rattus norvegicus with 9 samples.

Results

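Egr1 regions lying deep inside annotated genes were taken from 3 tables of differential Egr1 binding in the rat medial prefrontal cortex (mPFC). A region was a member when it lay on chromosomes 1 to 20, was annotated as inside, spanning or overlapping a gene, and was more than 10 kb from the start of that gene. By this rule 275 of the 2087 autosomal regions of proestrus females versus males were members, as were 274 of 1654 in proestrus versus diestrus females and 114 of 634 in diestrus females versus males. Together these were 663 of the 5690 regions in the 3 tables. The rule used position only, but every region in the tables had been listed by the authors because it differed between the groups compared, so a difference between these groups is not a finding here and no test was run on it.

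Chromatin came from mPFC tissue punches of 9 Sprague-Dawley rats, 8 weeks old at the start of the study, namely 3 males, 2 females in proestrus and 4 females in diestrus, with the stage of each female read from vaginal smears. No treatment or allele is given for any group, and the data kept are of 9 animals, with an Egr1 library and an Input library prepared for each. Per the study's methods, libraries were prepared from further proestrus and diestrus samples, which the authors removed as outliers on the sequencing data. DNA bound by Egr1 was precipitated with the antibody sc-110-X and sequenced. The punches hold all cell types of the tissue, so fewer binding cells and less binding per cell cannot be told apart, and region tables hold no measure by which the tissue itself could be checked against its marker genes.

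Egr1 is a zinc finger transcription factor and an immediate early gene product, which neurons make within a short time of activity and which binds GC-rich sites. It is known mostly for binding near gene starts, but introns of long genes also hold enhancers to which activity-regulated factors bind. Genes expressed in neurons, among them those for receptors, adhesion molecules and signaling enzymes, are often long, which leaves much intronic sequence far from their starts. Proestrus is the stage of the rat cycle with high ovarian estradiol, and diestrus a stage with low hormone levels.

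Values below are normalized reads, that is, the reads of a library in a region after the authors' scaling, and a log2 ratio is that of the 2 group means with the group named first on top. Dividing each library value by the value of a single read gave a whole number within 0.1 reads for 31606 of 31606 values, so the reads behind each value were recovered. Members were shallow. Their median number of reads, summed over the libraries of a table, was 17 for both comparisons with proestrus and 27 for diestrus versus males. A single read was worth between 0.558 and 1.65 normalized reads, depending on the library and the table. The 3 tables were scaled separately and share libraries, so levels are compared only within a table. Libraries appear in each table as an unnamed list, and no library was matched to an animal.

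Members lay far from gene starts, in long genes. The median distance from the start was 48251 bp for proestrus against males, 42861 bp for proestrus against diestrus and 48698 bp for diestrus against males, and the farthest member lay 620884 bp from a start. More than 100 kb separated the region from the start in 80, 60 and 29 members of the 3 tables in this order. The genes holding them had a median length of 139452, 139598 and 124090 bp, counting each gene once per table. Genes holding a listed region within 10 kb of their start had medians of 34262, 24320 and 15800 bp. A gene shorter than 10 kb could not hold a member, so longer genes follow in part from the rule.

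Along the gene, members were spread over its whole length. When each gene was cut into 4 equal parts from start to end, these held the midpoints of 66, 93, 74 and 42 members of proestrus versus males. The corresponding numbers were 72, 89, 62 and 51 for proestrus against diestrus, and 22, 42, 35 and 15 for diestrus against males. The part following the opening one held most members in each table, and the part at the gene end held fewest. Because the rule removed the first 10 kb, the opening part of shorter genes could hold few or none. Regions reaching past the gene end were rare, at 2, 5 and 0, and 33, 35 and 13 members ended within 10 kb of the end of the gene or past it. Exon positions were at hand for the genes of 8 members, including *Sobp*, *Alx4*, *Dnajc1*, *Myh11* and *Abhd5*, and 8 of 8 lay in an intron.

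**Figure D1:**
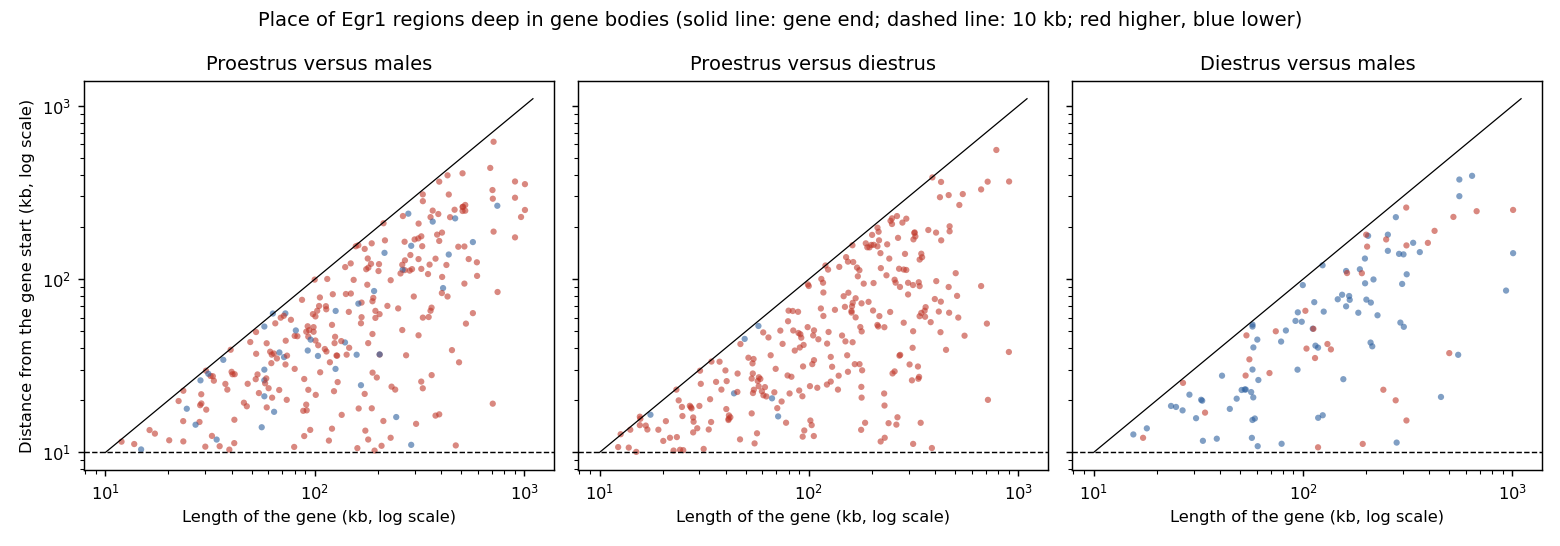
Distance of each member from the start of its gene (kb, log scale) against the length of that gene (kb, log scale), 1 panel per table, with the gene end as a solid line and the 10 kb limit as a dashed line. Red points are higher and blue points lower in the group named first. Lower members reach 265183 bp from the start in proestrus versus males, where higher ones reach 620884 bp, and higher members reach 258951 bp in diestrus versus males, where lower ones reach 394764 bp.

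At the limit itself, the nearest member of proestrus versus males lay 10245 bp from a start with means of 6.96 and 0.930, and the nearest region left out lay at 9677 bp with 7.37 and 1.19. Against diestrus these were *Nfkbil1* at 10075 bp, with 6.07 and 0.640, and a region at 9884 bp with 7.46 and 0.900. Of the regions of diestrus versus males, that at 10705 bp had means of 7.47 and 1.66, and that at 9956 bp had 5.94 and 1.00. Regions on both sides of the limit had similar levels. The annotation names only the gene with the nearest start, so a region inside a long gene but nearer to another start was not counted. Of the regions annotated as outside a gene, 45 of 1702, 56 of 1282 and 21 of 466 lay within the span of another gene named in the tables.

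Most members were higher in proestrus, and most were lower in diestrus than in males. In proestrus versus males, 234 of 275 members were higher in proestrus, a share of 85.1% (Wilson 95% interval 80.4 to 88.8), against 90.3% of all listed autosomal regions. Against diestrus, 268 of 274 were higher in proestrus, or 97.8% (95.3 to 99.0), against 98.2%. In diestrus versus males, 32 of 114 were higher in diestrus, or 28.1% (20.6 to 36.9), against 37.9%. The shares of members were thus within 10 percentage points of those of all autosomal regions in each table, and neighbouring regions are not independent, so the intervals cover counting error only.

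The share higher in diestrus than in males was 22.2% within 10 kb of a start inside genes, 28.1% deep in gene bodies, 35.5% outside genes within 100 kb and 57% beyond 100 kb. The shares higher in proestrus than in males were 77.3%, 85.1%, 88.0% and 96.2% at the same places. For proestrus against diestrus all 4 shares lay between 95.9% and 99.2%. The intervals of members overlapped those of regions near starts and those of regions outside genes within 100 kb in each table, so members were not resolved from either, whereas the intervals of members and of regions beyond 100 kb did not overlap in proestrus versus males and in diestrus versus males.

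**Figure D2:**
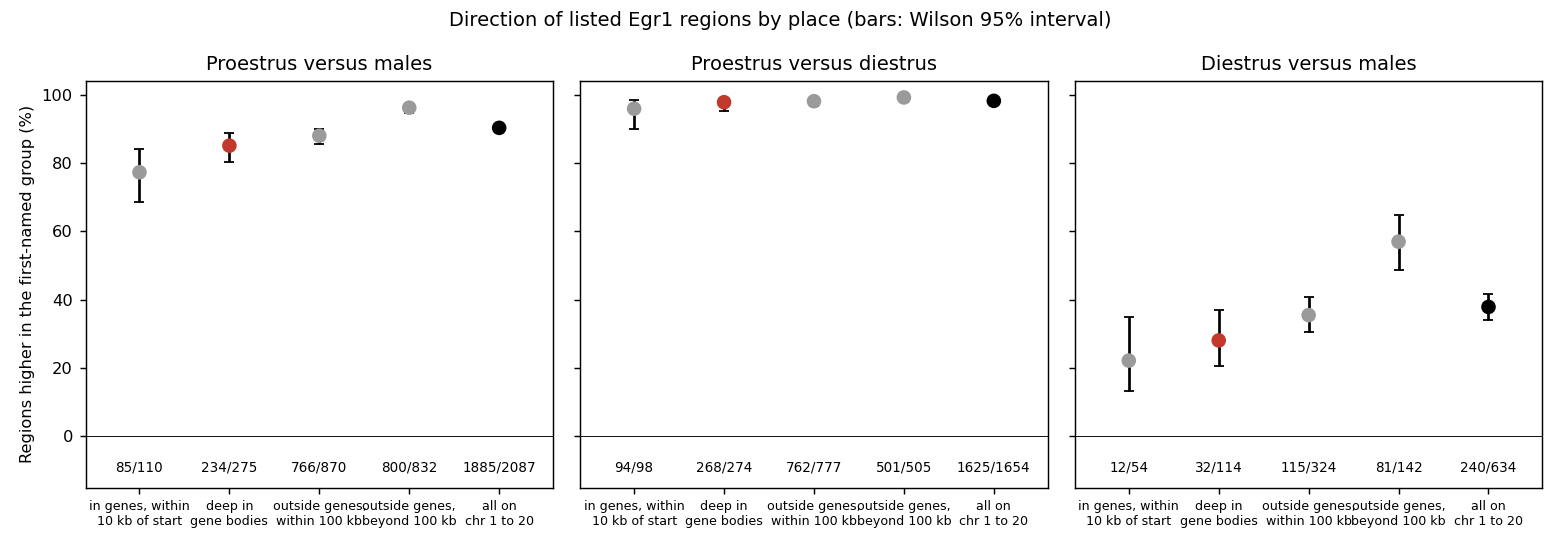
Share of listed regions that were higher in the group named first (%), by place relative to genes, with Wilson 95% intervals as bars and counts under each point. Members (red) lay at 85.1%, 97.8% and 28.1% in the 3 panels, near the share of all autosomal regions (black) at 90.3%, 98.2% and 37.9%.

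The direction moved with the number of reads. In proestrus versus males, 184 of 184 members with fewer than 20 reads were higher in proestrus, and the shallowest member that was lower in proestrus held 22 reads. The same held for all autosomal regions, with 1488 of 1488 under 20 reads higher and the shallowest lower one at 22 reads. Among members with at least 20 reads, 50 of 91 were higher in proestrus, or 54.9% (44.7 to 64.8), against 66.3% of all autosomal regions of that depth. Against diestrus, 197 of 197 shallower members were higher in proestrus, as were 1185 of 1185 autosomal regions of that depth. Of the deeper members 71 of 77 were higher, or 92.2%, against 93.8% of all autosomal regions of that depth. Only 3 members of diestrus versus males held fewer than 20 reads, and 30 of the 111 others were higher in diestrus, or 27.0%, against 37.3%. Regions higher in the group of 2 proestrus libraries were therefore listed from 9 or 10 reads, and those lower in it from 22 reads. The part of this listing depth in the excess of proestrus regions was not tested.

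The tables also differ in how far their regions pass a stricter threshold. An adjusted p-value under 0.01, as computed by DiffReps, was held by 257 of 275 members of proestrus versus males, by 0 of 274 of proestrus versus diestrus and by 6 of 114 of diestrus versus males. Of all listed autosomal regions, 93.0%, 0% and 6.15% passed it.

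**Figure D3:**
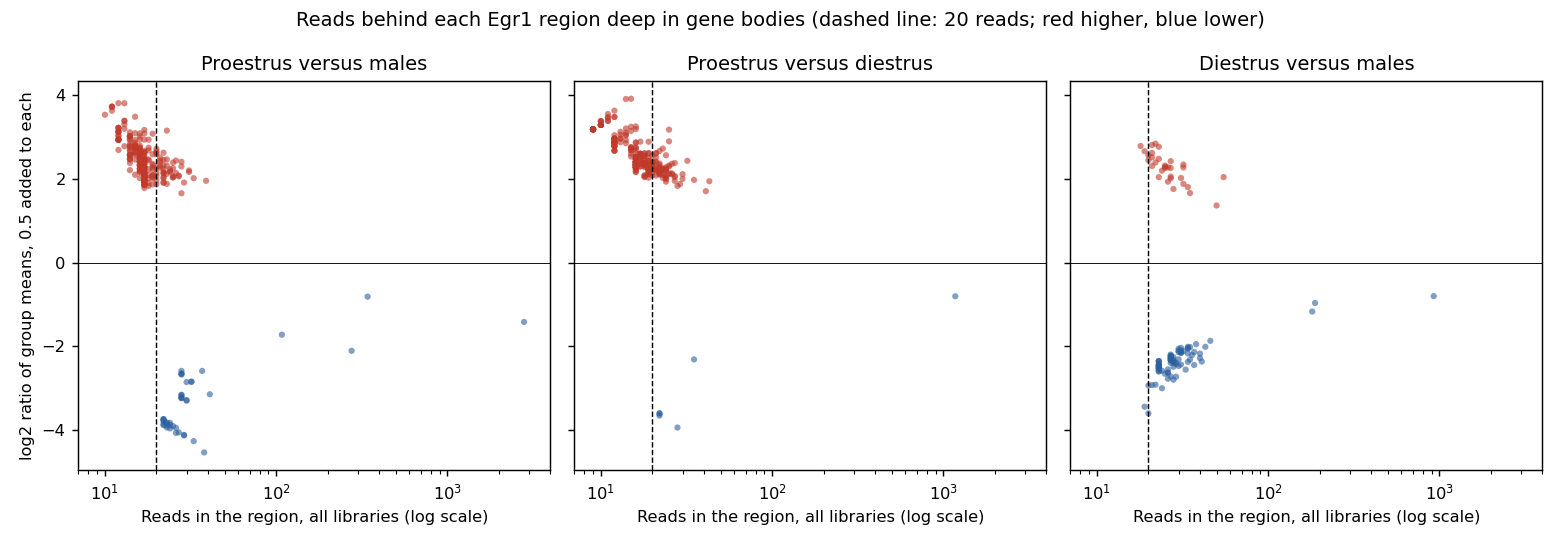
log2 ratio of the group means of each member, after adding 0.5 normalized reads to each mean, against the recovered reads of all libraries in the region (log scale), with 20 reads as a dashed line. In both comparisons with proestrus all points left of the line are red (higher in proestrus) and the blue points begin at 22 reads, whereas in diestrus versus males both colors begin near the line.

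The size of the differences was large by listing. Members higher in proestrus than in males had a median log2 ratio of 2.88 over the 227 with a ratio, between 1.80 and 5.05, with medians of 7.35 normalized reads in proestrus and 0.980 in males. In another 7 the male libraries were all at 0. Of the 41 members lower in proestrus, 21 had both proestrus libraries at 0, and the other 20 had a median of −3.46. Without proestrus library 2 of that list the median was −2.26, over only those of the 20 that kept a ratio. Of the 6 lower in proestrus than in diestrus, 2 had a ratio, with a median of −1.76. With each group at 0 set to a floor of 3 reads over the group, the medians over all 41 and all 6 were −2.28 and −2.07. These medians depend on the floor, since 21 of the 41 and 4 of the 6 had a proestrus mean of 0. With 0.5 normalized reads added to both means instead, they were −3.75 and −3.61. Against diestrus, the 234 higher members with a ratio had a median of 2.94, and in 34 more all diestrus libraries were at 0. For diestrus against males the medians were 2.81 for the 32 higher and −2.90 for the 80 lower members with a ratio. The medians over all autosomal regions were 2.86, 2.99 and 2.71 for higher regions of the 3 tables, and −3.47, −2.65 and −2.98 for lower regions, where −2.65 rests on the 10 of 29 regions with a ratio. With groups at 0 set to the floor, the lower medians over all autosomal regions were −2.17 in proestrus versus males and −2.15 against diestrus.

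All libraries of one group lay above those of the other in 275 of 275 members of proestrus versus males, 272 of 274 of proestrus versus diestrus and 114 of 114 of diestrus versus males. For all listed autosomal regions these shares were 100%, 99.7% and 99.8%. Groups that do not overlap were thus a property of the listing.

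The deposited enrichment, the ratio of a group mean to its background, was above 1 in the group with the higher mean in 271 of 275, 271 of 273 and 111 of 114 members. Its median there was 2.24, 2.53 and 1.93. The background itself was computed as the mean divided by the enrichment, and could be compared where neither group was at 0. Its median log2 ratio was 0.16 for members higher in proestrus than in males, of which 132 of 227 had a background that was also higher, and 0.06 for those higher in proestrus than in diestrus, with 126 of 234. It was −0.50 for 20 of the 41 members lower in proestrus than in males, with 16 of 20 lower, and −0.24 for those lower in diestrus than in males, with 59 of 80 lower. In 77 of 247 members of proestrus versus males the background differed by more than 2-fold, in the direction of the reads in 49. The same held in 48 of 236 members of proestrus versus diestrus, in the direction of the reads in 19, and in 17 of 112 of diestrus versus males, in that direction in 13. The part of the background in the differences was not tested. Whether this background was made from the Input libraries was not given in the sources used here.

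Symbols were at hand for few of the genes, since only 1258 gene identifiers could be paired with a symbol, most of them on a few chromosomes. They cover 18 of the 246 genes with a member that differed between proestrus and males, 12 of 265 between proestrus and diestrus, and 12 of 106 between diestrus and males, and are no sample of gene functions. Of 228 genes in 8 lists of neuronal and hormone-related genes (glutamate receptors, GABA and glycine receptors, potassium channels, calcium and sodium channels, adhesion and guidance, synaptic vesicle release, synaptic scaffolds, and steroid hormone and immediate early genes), 19 had an identifier and 2 of these held a member. No statement about these gene groups is therefore possible. Of the members with a symbol, 13 of 19 were higher in proestrus than in males, 12 of 12 were higher in proestrus than in diestrus, and 4 of 12 were higher in diestrus than in males. The shares over all listed autosomal regions were 90.3%, 98.2% and 37.9%. Genes are given below with the level of every library, and with an exact 95% interval of the log2 ratio for counting error alone where the lower group held 1 to 3 reads, with no correction for the selection of the region. The interval was computed for the reads pooled over each group at the summed depth of its libraries. That ratio can differ from the printed ratio of the group means.

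The 2 members from the gene lists were both higher in proestrus than in males. *Gabrb1* encodes the beta-1 subunit of the GABA-A receptor, the chloride channel of fast inhibition. Its region at chr14:38913101-38913600 (Rnor_5.0), 10974 bp into a gene of 470920 bp, held 4.95 and 7.30 normalized reads in the proestrus libraries and 0, 1.83 and 0 in the male libraries. Both proestrus libraries were above every male library, and the log2 ratio was 3.33 (interval 1.30 to 6.67, from 12 and 2 reads). *Epha5* encodes a receptor tyrosine kinase for ephrins that guides axons. Its region at chr14:25666751-25667300 lay 248657 bp from the start and held 6.60 and 5.68 in proestrus against 0, 0.92 and 0 in males. The log2 ratio was 4.31, with an interval of 1.56 to 9.77, since the male group held 1 read.

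Further members with a symbol were higher in proestrus than in males. *Ncor1*, a corepressor recruited by nuclear receptors, held 6.60 and 7.30 normalized reads in proestrus and 1.39, 0.92 and 1.27 in males at chr10:48522651-48523150. The means were 6.95 ± 0.495 (SD, n = 2) and 1.19 ± 0.244 (n = 3), with a log2 ratio of 2.55. *Arhgap24*, a GTPase-activating protein, held 2 members. That at chr14:8537501-8538100 read 8.25 and 8.11 in proestrus and 1.39, 0.92 and 1.27 in males, and that at chr14:8620651-8621150 read 4.95 and 8.11 against 0, 0.92 and 1.27. The gap between the groups at the former was larger than the spread within them, with SDs of 0.0990 and 0.244 around means of 8.18 and 1.19 and a log2 ratio of 2.78. The latter had a log2 ratio of 3.16 (1.13 to 5.45). *Atp2a2*, the calcium pump of the endoplasmic reticulum, read 6.60 and 7.30 against 0, 1.83 and 0.63 at chr12:41460051-41460550, with a log2 ratio of 3.08 (1.13 to 5.45).

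The spread within groups varied among the other members of this direction. *Lnx1*, a ubiquitin ligase that binds Numb, read 14.84 and 7.30 in proestrus and 2.78, 2.75 and 0.63 in males at chr14:35939151-35939700, where the proestrus libraries differed from each other by more than the lower of them differed from the male mean. *Ccdc64* and *Pan3*, a subunit of a poly(A) deadenylase, each read 9.89 and 5.68 in proestrus, against 2.78, 0.92 and 0.63 for *Ccdc64* and 0, 2.75 and 0 for *Pan3*. *Dcbld2*, a transmembrane protein, read 6.60 and 10.55 against 4.17, 0.92 and 0.63, and its highest male library lay close to its lower proestrus library. *Btbd9* read 6.60 and 7.30 against 1.39, 2.75 and 0, and *Sobp* read 8.25 and 5.68 against 0, 0 and 1.27. *Snx29*, a sorting nexin chosen after its values were seen, read 4.95 and 8.11 against 0, 1.83 and 0.63. The log2 ratios of *Lnx1*, *Ccdc64*, *Pan3*, *Dcbld2*, *Btbd9*, *Sobp* and *Snx29* were 2.43, 2.44, 3.08, 2.17, 2.33, 4.05 and 2.99. Males held 1 to 3 reads in *Pan3* and *Snx29* (interval 1.13 to 5.45 for each) and in *Sobp* (1.30 to 6.67).

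Of the members with a symbol, 6 were lower in proestrus than in males. *Cabin1*, which binds and inhibits the phosphatase calcineurin, read 1.65 and 0.81 in proestrus and 8.34, 10.09 and 11.41 in males at chr20:16056051-16056600, with a log2 ratio of −3.02 (−6.35 to −1.29). *Dgkg*, a diacylglycerol kinase, read 1.65 and 0 against 11.12, 9.17 and 6.97 at chr11:85144651-85145150, with −3.47 (−9.33 to −1.38). *Hlcs*, which attaches biotin to carboxylases, read 0 and 0.81 against 6.95, 7.34 and 8.88, with −4.23 (−9.23 to −1.27). Male libraries were above every proestrus library in each of these genes.

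In 3 further genes neither proestrus library held a read. *Wipi2*, a phosphoinositide-binding protein of autophagosome formation, read 8.34, 6.42 and 8.88 in males at chr12:15999651-16000200, 2375 bp before the gene end. Set against a floor of 3 reads over the proestrus group, it was at least 4.83-fold lower in proestrus, while the exact counting interval of the log2 ratio, which also covers the error of the male reads, ended at −1.89. *Alx4*, a homeobox transcription factor, read 8.34, 8.25 and 5.07 in males and was at least 4.43-fold lower in proestrus by this floor, with an interval ending at −1.64. *Cit*, which encodes a kinase and was chosen after its values were seen, read 5.56, 6.42 and 6.97 and was at least 3.87-fold lower by this floor, with an interval ending at −1.57.

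The members with the largest means in proestrus versus males have no symbol here. The largest of those higher in proestrus lay at chr5:90581001-90581650, 60321 bp into a gene of 167115 bp, and read 14.84 and 14.60 in proestrus and 2.78, 3.67 and 3.80 in males. Its means of 14.7 ± 0.170 and 3.42 ± 0.555 gave a log2 ratio of 2.11. The next, at chr14:84260351-84260850 at the end of a gene of 11933 bp, read 18.14 and 8.11 against 1.39, 0.92 and 5.07. Another, at chr8:84176901-84177500, read 18.14 and 7.30 against 1.39, 0.92 and 0.63, with a log2 ratio of 3.70 (1.86 to 6.01). In both of these the proestrus libraries differed from each other by more than the lower of them differed from the males' mean.

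In proestrus versus diestrus, 12 of 12 members with a symbol were higher in proestrus, as were 98.2% of all listed autosomal regions. *Cd47*, a membrane protein that binds SIRP-alpha on microglia and other phagocytes, read 5.26 and 6.26 normalized reads in proestrus and 0.85, 0, 1.06 and 1.04 in diestrus at chr11:56710401-56711050. Its log2 ratio was 2.96 (1.07 to 5.38, from 13 and 3 reads). *Ca10*, a carbonic anhydrase-related protein that binds neurexins, read 3.95 and 5.56 against 0.85, 0, 0 and 0 at chr10:80693901-80694400, with 4.50 (1.49 to 9.70). *Caln1*, a neuronal calcium-binding protein, read 6.58 and 5.56 against 1.71, 1.26, 0 and 0 at chr12:31513401-31513900, 167489 bp from the start, with 3.04 (1.07 to 5.38). All 3 had both proestrus libraries above every diestrus library.

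*Tgfbr3*, the TGF-beta coreceptor betaglycan, had no read in any diestrus library and 3.95 and 4.17 normalized reads in proestrus at chr14:3622201-3622700. Against a floor of 3 reads over the diestrus group it was at least 5.24-fold higher in proestrus, with 9 reads in all and an exact interval of the log2 ratio that began at 1.80. *Kif13a*, a kinesin motor of endosomal transport, read 5.26 and 4.87 against 0, 0, 1.06 and 0 (log2 ratio 4.28, interval 1.49 to 9.70). *Dnajc1*, a cochaperone of the endoplasmic reticulum, read 5.26 and 5.56 against 0.85, 0, 0 and 0 (4.69, 1.64 to 9.82). The diestrus groups of *Ca10*, *Kif13a* and *Dnajc1* held 1 read each.

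The remaining named members of this table had 3 or 4 reads in diestrus. *Nfkbil1* read 6.58 and 5.56 in proestrus against 2.56, 0, 0 and 0 in diestrus, so its diestrus reads came from 1 library, and its log2 ratio was 3.25 (1.07 to 5.38). *Tmem132c* read 9.21 and 5.56 against 0.85, 2.52, 0 and 1.04, and *C2cd2* read 10.52 and 4.17 against 0, 0, 3.18 and 1.04. In *C2cd2* the lower proestrus library and the highest diestrus library were 4.17 and 3.18, the closest approach of the groups among the members with a symbol in this table. *Btbd9* and *Sobp* recur from the comparison with males but at other positions. *Btbd9* at chr20:11304101-11304600 read 5.26 and 7.65 against 0.85, 1.26, 1.06 and 1.04, and *Sobp* at chr20:49505901-49506400 read 5.26 and 6.26 against 0.85, 1.26, 0 and 1.04. Their log2 ratios were 2.62 and 2.87, the latter with an interval of 1.07 to 5.38.

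The 6 members lower in proestrus than in diestrus carried no symbol. The largest after the chromosome 17 gene described below lay at chr15:42527601-42528100 and read 2.63 and 0 in proestrus and 7.68, 8.82, 6.35 and 11.46 in diestrus, with a log2 ratio of −2.70 (−6.33 to −1.26). At chr7:12663851-12664400 neither proestrus library held a read and the diestrus libraries read 7.68, 7.56, 7.41 and 6.25, at least 5.30-fold more against a floor of 3 reads in proestrus, with an interval of the log2 ratio ending at −2.01. Of those higher in proestrus, the largest mean was at chr9:13784551-13785150, with 11.84 and 15.30 in proestrus against 0.85, 1.26, 4.23 and 6.25.

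In diestrus versus males, *Fyn* had the largest mean of the members higher in diestrus. Fyn is a Src family tyrosine kinase that phosphorylates NMDA receptor subunits. The region at chr20:46269301-46270250, 108241 bp into a gene of 190968 bp, read 14.31, 13.73, 14.19 and 9.46 in diestrus and 2.49, 4.08 and 1.67 in males. Every diestrus library was more than double the highest male library, and the means of 12.9 ± 2.32 (n = 4) and 2.75 ± 1.23 (n = 3) gave a log2 ratio of 2.23 from 45 and 10 reads. *Hectd4*, a HECT-domain protein, read 6.68, 5.49, 4.73 and 7.09 against 0, 0.82 and 1.67 at chr12:42645301-42645800. *Uspl1*, a SUMO isopeptidase, read 4.77, 9.61, 9.46 and 7.09 against 0, 0 and 3.35 at chr12:9027701-9028200, 1516 bp before the gene end.

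Among the 8 members with a symbol that were lower in diestrus were 2 genes of the contractile apparatus of smooth muscle, a cell type of vessel walls. *Mylk*, myosin light chain kinase, read 0.95, 0, 1.18 and 4.73 in diestrus and 12.44, 8.98 and 7.25 in males at chr11:72270851-72271400, with a log2 ratio of −2.47. *Myh11*, the smooth muscle myosin heavy chain, read 0.95, 0, 0 and 2.36 against 4.98, 8.17 and 5.58 in an intron at chr10:11474301-11474850, with −2.91 (−5.24 to −1.14). No list of smooth muscle genes was set up, and the pair was noticed after the values were seen. The background was lower in diestrus for *Mylk*, by −1.52 on the log2 scale, and higher for *Myh11*, by 0.43.

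*Ptprc*, the leukocyte phosphatase CD45, which microglia also carry, read 0, 0, 2.37 and 0 in diestrus against 7.47, 6.53 and 6.14 in males at chr13:60153551-60154150 (−3.51, −6.63 to −1.50). *Slc47a1*, an exporter of organic cations, read 0, 0, 1.18 and 0 against 6.22, 4.90 and 5.58 (−4.21, −9.62 to −1.62). *Abhd5*, a coactivator of triglyceride lipase, read 1.91, 0, 0 and 0 against 4.98, 5.72 and 8.37 (−3.73, −6.68 to −1.56). In each of these the diestrus reads came from 1 of 4 libraries. *Tsc22d1*, a leucine zipper protein, read 1.91, 1.37, 0 and 0 against 8.71, 6.53 and 5.58, and *Bbx*, an HMG-box protein, read 0, 1.37, 1.18 and 1.18 against 6.22, 5.72 and 6.69. Their log2 ratios were −3.08 (−5.29 to −1.21) and −2.74 (−5.24 to −1.14). Male libraries were above every diestrus library in each of the 8.

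**Figure D4:**
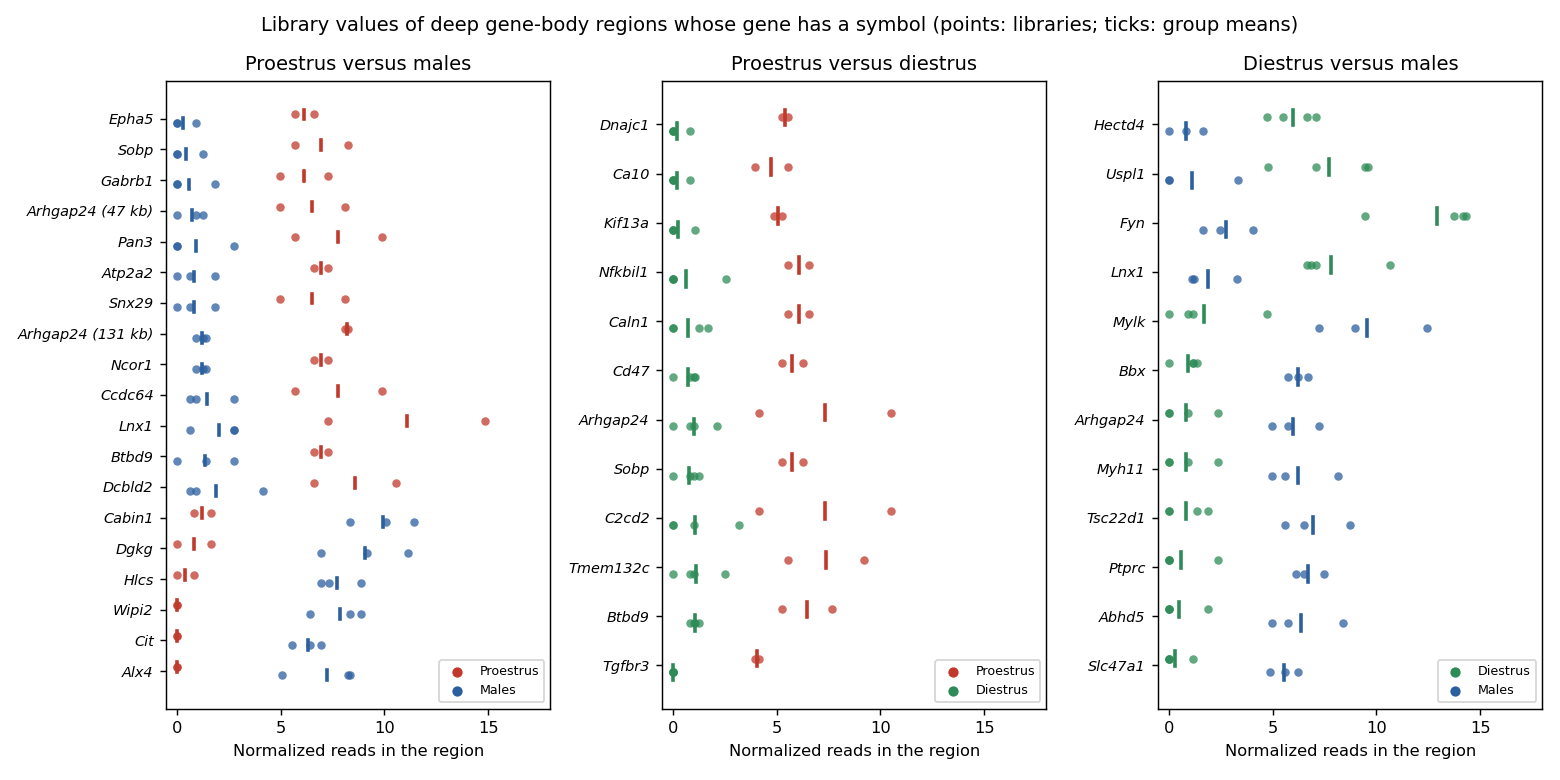
Normalized reads of every library (points) and group means (ticks) for the members whose gene has a symbol, ordered by log2 ratio, with genes without reads in the lower group of the comparison at the foot; distances from the start are in parentheses where a gene has more than 1 member. The groups do not overlap in any row, as in 100%, 99.7% and 99.8% of all listed autosomal regions, and *Fyn* has the largest diestrus mean at 12.9.

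For some members with a symbol the background differed by more than 1 on the log2 scale in the direction of the reads. Against males, these were *Pan3*, with a background ratio of 2.40, the *Arhgap24* member at chr14:8537501-8538100 with 1.45, and *Dgkg* with −2.96. Against diestrus, they were *Ca10* with 2.79, *Arhgap24* with 1.24 and *Btbd9* with 1.18. Between diestrus and males, they were *Slc47a1* with −1.69 and *Mylk*, given above. In *Epha5* and *Ccdc64* it differed in the opposite direction, by −1.45 and −1.22.

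*Arhgap24* held members in all 3 tables, at 4 different positions of a gene of 312720 bp. Against males, proestrus was higher at 130570 and 47420 bp from the start, and against diestrus it was higher at 40170 bp, where the proestrus libraries read 10.52 and 4.17 and the diestrus libraries 0.85, 0, 2.12 and 1.04. At 106670 bp diestrus read 0.95, 0, 2.37 and 0 and males 4.98, 5.72 and 7.25, with a log2 ratio of −2.85 (−5.24 to −1.14). The levels of the group not in a table are not known at these positions, since the tables list called regions only.

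At some positions regions of different tables coincide, and these were chosen after their values were seen. The tables share libraries, so the following pairs are given side by side, are not independent and do not show how often each pattern occurred. In *Lnx1*, proestrus was higher than males as given above, and at chr14:35939101-35939650 diestrus read 6.68, 6.87, 7.10 and 10.64 against 1.24, 3.27 and 1.12 in males, with a log2 ratio of 2.06. Both groups of females were thus listed above males at this position. The same held at chr9:68479701-68480200, 250793 bp into a gene of 1007635 bp, where proestrus read 6.60 and 5.68 against 0, 0 and 0.63 in males, and diestrus read 5.73, 4.12, 4.73 and 7.09 against 0, 0.82 and 0.56. The log2 ratios were 4.87 (1.56 to 9.77) and 3.56 (1.34 to 6.53).

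Diestrus was below both other groups at chr8:46313451-46314050. Proestrus read 7.89 and 7.65 there against 0.85, 3.78, 0 and 1.04 in diestrus (log2 ratio 2.45), and in the table of diestrus and males, diestrus read 0.95, 4.12, 0 and 1.18 against 8.71, 6.53 and 8.37 (−2.33). At chr1:4561651-4562200 proestrus read 7.89 and 6.26 against 0, 0, 0 and 2.08 in diestrus, and diestrus read 0, 0, 0 and 2.36 against 7.47, 4.90 and 5.02 in males. The log2 ratios there were 3.77 (1.62 to 6.89) and −3.29 (−6.39 to −1.22). Each pair uses the same diestrus libraries, scaled for 2 tables.

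Proestrus was above both other groups at chr5:90581001-90581650 given above, where the overlapping region of proestrus versus diestrus read 9.21 and 12.52 against 4.27, 0, 2.12 and 0. At chr11:28097801-28098300, 167439 bp into a gene of 216145 bp, proestrus read 8.25 and 6.49 against 1.39, 2.75 and 0 in males. The overlapping region read 6.58 and 5.56 against 0.85, 0, 0 and 0 in diestrus, with a log2 ratio of 4.85 (1.78 to 9.93). At both positions every proestrus library was above every library of the other groups in its table.

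A gene on chromosome 17 without a symbol here (chr17:91069715-91127097, 57383 bp) stood apart from the other members by depth. It held 4 members of the comparison of proestrus with males, 1 of that with diestrus, and 3 of diestrus versus males, all of them lower in the group named first. The deepest, at chr17:91123001-91125350, read 260.56 and 255.57 in proestrus and 810.25, 513.48 and 753.85 in males, with a log2 ratio of −1.42 from 473 and 2332 reads. Its background differed by the same −1.42 on the log2 scale, and its enrichment was 1.37 in both groups. The member at chr17:91099751-91100900 read 18.14 and 13.79 against 76.44, 43.10 and 92.57, with a log2 ratio of −2.15 and a background ratio of −2.22.

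In the other tables the log2 ratios of this gene were between −1.20 and −0.81. Proestrus read 124.98 and 135.59 against 249.99, 252.02, 273.08 and 138.58 in diestrus at chr17:91123401-91124200, where the lowest diestrus library was close to the higher proestrus library, and the log2 ratio was −0.81 with a background ratio of −0.90. Diestrus read 101.14, 100.24, 100.52 and 70.93 against 209.03, 119.22 and 161.20 in males at chr17:91124401-91125300, with −0.81 and a background ratio of −0.36. In the 5 members of the comparisons with proestrus the background differed by at least as much as the reads, in the 3 of diestrus versus males it differed by less, and the part of the background in these differences was not tested.

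**Figure D5:**
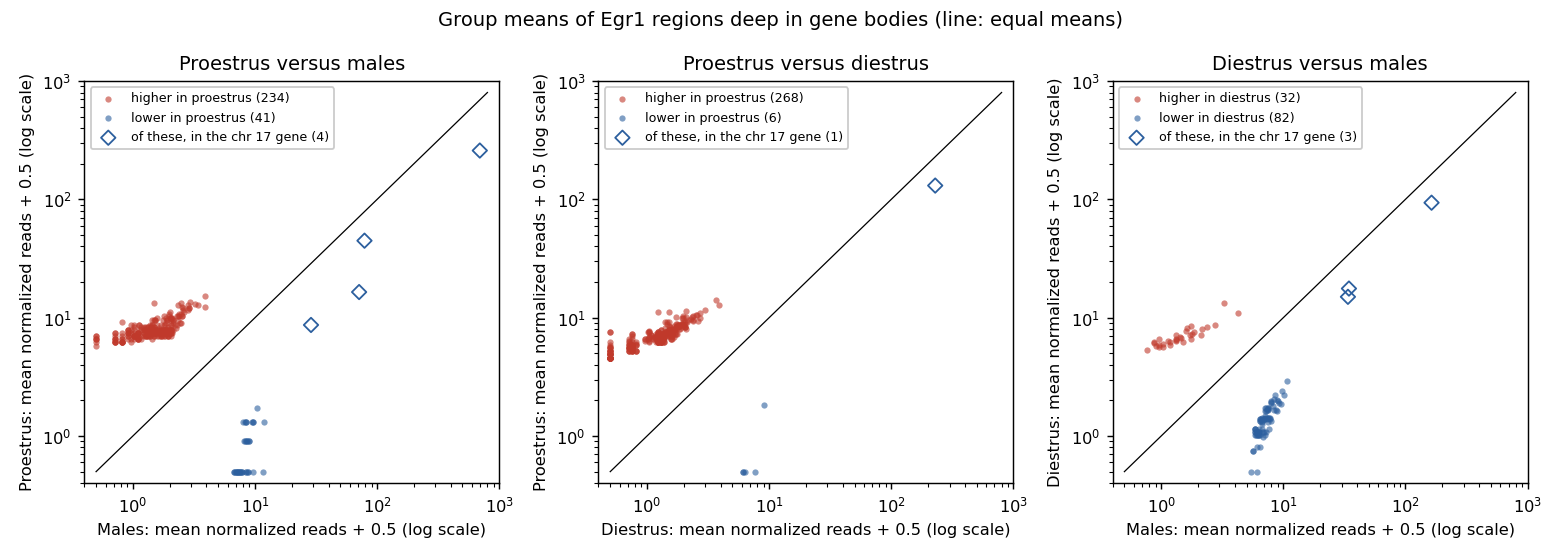
Mean normalized reads of the group named first against those of the other group, with 0.5 added to each mean (log scales), for every member; the line marks equal means and open diamonds mark the gene on chromosome 17. The diamonds, with means up to 693 in males, lie apart from all other members, whose higher group mean was between 4.06 and 14.7.

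Some genes held several members. There were 24 such genes in proestrus versus males, of which 20 had all members higher in proestrus, 2 all lower and 2 members of both directions. Against diestrus all 9 had members higher in proestrus, and in diestrus versus males 1 of 7 had all higher, 4 all lower and 2 both. Of all listed autosomal regions, 90.3%, 98.2% and 37.9% were higher in the group named first. Members of the same gene were seldom close, with medians of the smallest gap of 70101, 38251 and 41301 bp. The gene of 507327 bp at chr1:192644288-193151614 held 3 members higher in proestrus than in males, with 9.89 and 5.68 against 1.39, 0 and 0.63 at 247463 bp from the start, 4.95 and 6.49 against 0, 0 and 0.63 at 260813 bp, and 6.60 and 11.36 against 1.39, 0.92 and 1.90 at 408263 bp. The log2 ratios were 3.54 (1.44 to 6.77), 4.77 (1.56 to 9.77) and 2.68. A gene of 903517 bp on chromosome 13 likewise held 3, with log2 ratios of 4.77 (1.56 to 9.77), 2.26 and 2.49.

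Members of both directions in 1 gene were seen in diestrus versus males at chr1:216447390-216565356. At 40255 bp from the start diestrus read 0.95, 0, 1.18 and 3.55 against 7.47, 6.53 and 8.37 in males, a log2 ratio of −2.39. At 10705 bp diestrus read 7.63, 6.87, 8.28 and 7.09 against 2.49, 0.82 and 1.67, a log2 ratio of 2.17. Both differences were larger than the spread within the groups, with SDs of 1.51 and 0.920 at the former and 0.629 and 0.835 at the latter.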

How the data were processed

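Per the labels and the study's methods, the authors trimmed reads with Trimmomatic 0.32, mapped them to Rnor_5.0 with Bowtie2 2.1.0, kept unique reads with a mapping quality of at least 30, removed duplicates and outlier libraries, and called differential regions with DiffReps. The tool's window, test, cut-off and normalization were not given in the sources used here. Group means as deposited are a signal (coverage in normalized reads), the deposited enrichment is a ratio to background, and of the authors' own comparison columns (log2 fold change, p-value and adjusted p-value) only the deposited adjusted p-value was used, as a stricter threshold.

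Reads were recovered by dividing each library value by the value of 1 read, which was tested on simulated data for each table. The log2 ratio was that of the deposited means, and a group at 0 was given a floor of 3 reads. Intervals were Wilson (shares) and Clopper-Pearson (reads) at 95% and cover counting error only. No test of a difference between groups was run, since regions had been selected on these libraries. Named genes were the 3 members with the largest mean per table and direction, the 3 genes with most members, genes in several tables, up to 12 members with a symbol (ties kept) and members in the gene lists, of which not all are described. Symbols came from the part of the study's gene expression table used here, and exon positions from the study's exon table. Members and lists were chosen with earlier results of these data known. Sequences and motifs were not analysed, because the Rnor_5.0 genome was not used here. Whether sequencing pools differed was not analysed, since the labels do not give the pool of each sample. Per the study's methods, a pool held diestrus samples only, while the others held a sample of each group. Python 3.11.15, numpy 2.4.6, pandas 2.3.3, scipy 1.17.1 and matplotlib 3.10.9 were used.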

Additional observations from a re-analysis of the deposited data

Results flagged for a closer look

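In 12 of 48 groups of 4 diestrus libraries at the named members, 1 library stood apart from the other three by Dixon's test at its 95% critical value. Chance flags about 5% of groups of continuous values, a rate that does not hold for these few reads. In proestrus versus diestrus these were the libraries with 0.85 normalized reads at *Ca10*, 1.06 at *Kif13a*, 0.85 at *Dnajc1*, 2.56 at *Nfkbil1* and 5.04 at chr5:125841901-125842450. In diestrus versus males they were the libraries with 1.18 at *Slc47a1*, 2.37 at *Ptprc*, 1.91 at *Abhd5*, 0.00 at *Bbx*, 10.64 at *Lnx1*, 9.46 at *Fyn* and 70.93 at chr17:91124401-91125300. At *Ca10*, *Kif13a*, *Dnajc1*, *Nfkbil1*, *Slc47a1*, *Ptprc* and *Abhd5* the other 3 libraries were at 0, so in these 7 groups any read at all was flagged, whatever its size.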

How the results depend on the processing

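No paired analysis was possible because replicate numbers in the labels only name samples and library lists carry no numbers. With members of at least 20 reads, proestrus versus males kept 91 members in 86 genes (15.2% of autosomal regions, 54.9% higher, median log2 ratio 2.45 for higher, background −0.09) and proestrus versus diestrus 77 members in 77 genes (92.2% higher). With adjusted p-values under 0.01, proestrus versus males kept 257 of 275 members and proestrus versus diestrus had 0 members in 0 genes. Diestrus versus males kept 6 in 6 genes (16.7% higher), and the only higher one had a log2 ratio of 2.23. Limits of 5 and 20 kb gave shares of autosomal regions of 15.3% and 10.7% in proestrus versus males, 19.0% and 12.8% in proestrus versus diestrus, and at 20 kb 14.2% in diestrus versus males. Medians of lower members at 20 kb were −3.37 and −0.81 in the comparisons of proestrus with males and diestrus. The value of −0.81 is that of the chromosome 17 member alone, the only lower one left with a ratio. Adding 0.5 to both means gave medians of 2.41, 2.42 and 2.28 for higher members of the 3 tables, and −3.75 and −3.61 for lower members of the comparisons with proestrus, against −3.46 and −1.76 as reported. With 0.5 added, members with a group at 0 also have a ratio. The lower medians then cover all 41 and all 6 members instead of the 20 and 2 behind the reported ones, so they are not of the same members. Without the chromosome 17 gene, chosen after seeing the data, the reported medians of −3.46 and −1.76 became −3.62 and −2.70. The latter is the value of the member at chr15:42527601-42528100 alone. Leaving out each library gave medians of 2.67 to 2.93 (higher) and −3.45 to −2.26 (lower) in proestrus versus males, 2.88 to 3.06 and −1.77 to −0.75 in proestrus versus diestrus, and 2.58 to 2.90 and −2.95 to −2.77 in diestrus versus males. The lowest sizes of lower members came without proestrus library 2 of the list against males (−2.26) and library 1 against diestrus (−0.75). As reported, 20 and 2 lower members had a ratio in these comparisons. Both omissions also dropped members left with a proestrus mean of 0, so −0.75 is the value of the chromosome 17 member alone. Directions say nothing here about stability, since library values did not overlap between the groups in 275 of 275, 272 of 274 and 114 of 114 members. Leaving out 1 library moved the ratio by over 1.5-fold in 12 of 16 members with a symbol and a ratio in proestrus versus males, in 4 of 11 in proestrus versus diestrus and in 6 of 12 in diestrus versus males, not counting omissions that left a group at 0. Over all named members with a ratio, including those without a symbol, it did so in 22 of 33, 11 of 23 and 12 of 24. The log2 ratio ranged from 2.41 to 4.37 in *Snx29*, 2.50 to 4.46 in *Atp2a2*, 1.75 to 3.47 in *Dcbld2*, 1.75 to 3.32 in *Btbd9*, 1.98 to 4.41 in *C2cd2*, −3.75 to −2.06 in *Mylk*, −4.30 to −2.50 in *Myh11* and −4.24 to −2.43 in *Arhgap24* of diestrus versus males. The cause of these changes was not tested, except that a higher limit keeps fewer regions. Depth limits single members, of which 184, 197 and 3 held under 20 reads.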
